A study of Mus musculus with 8 samples.

Results

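Retinoid signalling was followed in the frontal cortex of mice through 9 genes that carry, convert or sense vitamin A, taken by symbol from the 55536 genes of the count table. They were Rbp4 and Stra6 (carrier and uptake), Rdh5, Aldh1a1 and Cyp26b1 (enzymes), and Rara, Rarb, Rxra and Rxrg (nuclear receptors), and each had 1 row in the table. The 8 libraries came from total RNA without its ribosomal part, 4 of WT and 4 of HAR123-KO mice at 8 weeks of age. In HAR123-KO mice the mouse counterpart of HAR123, an enhancer within an intron of Smg6, had been removed from the germline with CRISPR-Cas9 in C57BL/6J zygotes, so that it is absent from every tissue and not from cortex alone. The strain was kept on C57BL/6J and WT littermates served as controls. The number of founder lines, the sex of the mice and whether each library was 1 animal are not given in the sources used here, so the p-values below measure the spread between these libraries.

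Retinol travels in blood bound to retinol binding protein, RBP4, which rides on transthyretin, and STRA6 passes it into cells. Retinol dehydrogenases such as RDH5 oxidize retinol to retinaldehyde, aldehyde dehydrogenases such as ALDH1A1 make retinoic acid from it, and CYP26 enzymes break retinoic acid down. Retinoic acid binds the receptors RARA, RARB and RARG, which pair with an RXR on DNA at repeats of a short sequence unit. In the forebrain, Rarb and Rxrg are known for their high expression in the striatum, and transthyretin is known as the main secreted product of the choroid plexus.

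Total counts ran from 13528251 to 17051001 per library. Because Gm42418, which overlaps ribosomal RNA sequence, took 55.1% to 58.1% of them, nuclear protein-coding genes other than Lars2 received 2786320 to 3732172. The cortical neuron markers Slc17a7, Tbr1, Neurod6, Snap25, Rbfox3 and Camk2a had counts in every library. A normalized count is a read count divided by the size factor of its library.

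None of the 9 retinoid genes was past the threshold of the study in HAR123-KO against WT, and the receptor genes Rarb and Rxrg had the lowest unadjusted p-values, with log2 fold changes of 0.34 and 0.41. The threshold was an adjusted p under 0.05 with an absolute log2 fold change over 0.5 in DESeq2, and 0.298% of the 12758 genes with an adjusted p were past it (0.227% higher and 0.0705% lower in HAR123-KO). Of the 9 genes, 7 had enough counts for an adjusted p and Stra6 and Rdh5 did not. With DESeq2, 0 of the 7 had an adjusted p under 0.05, against 1.69% of all genes (0.972% higher, 0.713% lower), and 2 of the 7, Rarb and Rxrg, had an unadjusted p under 0.05 and were higher, against 8.78% of all genes (4.51% higher, 4.27% lower). By edgeR 0 of 8 members tested and by limma-voom 0 of 8 had an adjusted p under 0.05, and each had 2 at an unadjusted p under 0.05. In 2 of the 7, Rarb and Cyp26b1, the genotypes did not overlap, Rarb being higher and Cyp26b1 lower, a pattern of 7.67% of all genes tested (4.02% higher, 3.65% lower). The median log2 fold change of the 7 was 0.03, and that of all genes was 0.00.

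**Figure D1:**
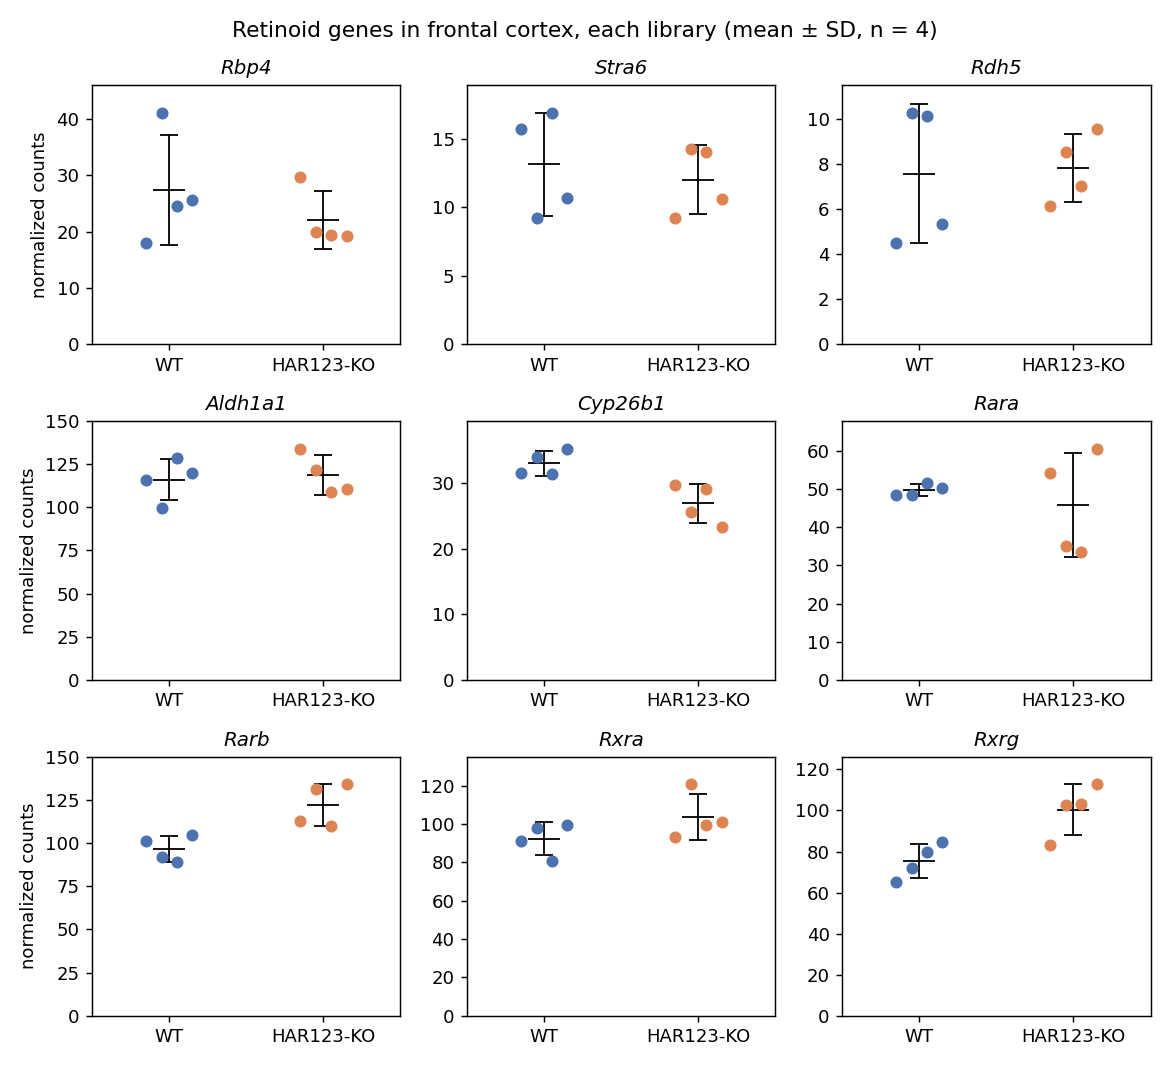
Normalized counts (y axis, from 0, a separate scale for each gene) of the 9 retinoid genes in each library of WT (blue) and HAR123-KO (orange), with the mean (long bar) and SD (whiskers, n = 4). Rarb in HAR123-KO lay at 110.0 to 134, above the WT range of 89.0 to 105, and Cyp26b1 lay at 23.4 to 29.7, below the WT range of 31.3 to 35.3.

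Per length of exon the members spanned a wide range of levels. Rxrg was highest, at 32.8 ± 3.68 normalized counts per kb among WT libraries and 43.7 ± 5.44 among mutants (SD, n = 4), and it exceeded the next gene, Aldh1a1, in 8 of 8 libraries without overlap. Aldh1a1 (23.5 ± 2.45 normalized counts per kb in WT), Rarb (18.4 ± 1.44), Rbp4 (20.4 ± 7.31) and Rxra (16.9 ± 1.58) formed a middle group (SD, n = 4). The ranges of neighbours in this group overlapped over the 8 libraries of both genotypes. Within WT, Aldh1a1 (20.2 to 26.1 normalized counts per kb) lay above Rarb (16.9 to 19.9) without overlap. Aldh1a1 was higher than Rarb in 6 of 8 libraries, and Rarb was higher in HAR123-KO replicates 2 and 4. Rara followed at 11.4 ± 0.366 normalized counts per kb in WT and Cyp26b1 at 6.17 ± 0.360 (SD, n = 4), each below the gene before it in 8 of 8 libraries. Rdh5 (2.70 ± 1.10 in WT) and Stra6 (2.26 ± 0.644) were lowest and overlapped with each other (SD, n = 4).

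The carrier Rbp4 was not past the test, while the gene of its partner transthyretin rose. Rbp4 (ENSMUSG00000024990, chromosome 19, 38116629 to 38125281, GRCm38, minus strand) was at 18.01, 41.2, 24.6 and 25.7 normalized counts in the WT libraries (replicates 1 to 4, as for all genes here). The HAR123-KO libraries had 29.7, 19.97, 19.4 and 19.1. The groups overlapped, with the highest value in WT replicate 2 and 3 of the 4 HAR123-KO libraries close together. The difference on the log2 scale was -0.32 ± 0.28 (SE, adjusted p = 0.871 in DESeq2), with a 95% interval from 0.549 to 1.17 times the WT level. Ttr, the gene of transthyretin, rose in the same libraries from 68.2 ± 5.15 to 641 ± 19.4 normalized counts (SD, n = 4, log2 fold change 3.24 ± 0.10, SE, DESeq2 adjusted p = 4.71e-216). The ratio of Ttr to Rbp4 counts was 1.80 to 3.63 in WT and 21.9 to 33.3 in HAR123-KO. The 95% interval of Rbp4 holds no fold as large as that of Ttr. Without WT replicate 2 the log2 fold change of Rbp4 was -0.06, and without HAR123-KO replicate 1 it was -0.49.

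Stra6, the membrane receptor that takes retinol from RBP4, was near the lower limit of this depth. The WT libraries had 15.8, 9.27, 16.9 and 10.7 normalized counts of Stra6 (ENSMUSG00000032327, chromosome 9, 58063788 to 58153996, plus strand), and the HAR123-KO libraries 9.21, 14.3, 14.1 and 10.6. The groups overlapped over nearly their whole range. With a log2 fold change of -0.13 ± 0.37 (SE) and no adjusted p, the 95% interval ran from 0.550 to 1.52 times the WT level, and a difference within it was not detectable at this depth.

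Choroid plexus markers were higher beside Ttr. All 18 genes of a choroid plexus list, which holds Ttr, had a higher fitted level in HAR123-KO. Of the 12758 genes with an adjusted p, 6297 were higher, but 15 of the 18 had too few counts to be among those genes. Ttr and Enpp2 were past an adjusted p of 0.05, as was Kl, which reached the minimum mean for an adjusted p only through its level in HAR123-KO (a mean of 36.0 normalized counts, against 9.15 in WT), and the other 15 had no adjusted p. Over all genes, 0.972% were higher past that limit. The summed level of the list was 982 to 1022 normalized counts in WT and 1948 to 2063 in HAR123-KO. Without Ttr and Enpp2, which were removed after their values were seen because they supply most of the counts, it was 34.9 to 50.4 in WT and 165 to 208 in HAR123-KO. Mfrp, a defining marker, had 0 counts in all 4 WT libraries, and no marker of the list was at 0 in all 4 HAR123-KO libraries. In bulk tissue, more cells of a type and more RNA per cell cannot be told apart. The part of choroid plexus RNA in the levels of Rbp4 and Stra6 was not tested.

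Among the enzymes, Rdh5, which oxidizes retinol and is best known from the visual cycle, was the sparsest member. The WT libraries had 4.50, 10.3, 10.2 and 5.35 normalized counts of Rdh5 (ENSMUSG00000025350, chromosome 10, 128913593 to 128922888, minus strand), and the HAR123-KO libraries 6.14, 8.56, 7.04 and 9.57. All 4 HAR123-KO values lay inside the WT range. The log2 fold change was 0.02 ± 0.48 (SE, with no adjusted p), and its 95% interval ran from 0.527 to 1.95 times the WT level. Its exons share 720 of 2809 bases (25.6%) with Bloc1s1 on the same strand, so that reads there cannot be assigned to either gene. For Bloc1s1 the mean was 7.80 ± 3.85 normalized counts in the WT libraries, and 11.6 ± 1.38 in the mutants (SD, n = 4), with no adjusted p.

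Aldh1a1, which turns retinaldehyde into retinoic acid, was the enzyme with the most counts and the narrowest interval. For Aldh1a1 (ENSMUSG00000053279, chromosome 19, 20492715 to 20643465, plus strand) the WT libraries had 116, 99.9, 129 and 119.8 normalized counts, and the HAR123-KO libraries 134, 122, 109 and 111. The groups overlapped, with the highest value in HAR123-KO replicate 1 and the lowest in WT replicate 2. The fitted difference was 0.03 ± 0.12 on the log2 scale (SE, adjusted p = 0.993 in DESeq2), and the 95% interval ran from 0.864 to 1.20 times the WT level. Its paralog Aldh1a7, with which it may share reads, was at 6.12 ± 1.26 normalized counts in the WT libraries and at 3.44 ± 2.22 in the mutants (SD, n = 4). Aldh1a2, the retinoic acid producer of the meninges, was at 15.7 ± 4.69 normalized counts in the WT libraries and had no adjusted p (SD, n = 4, log2 fold change -0.42 ± 0.37, SE).

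Cyp26b1, which degrades retinoic acid, was at a lower value in each HAR123-KO library than in any WT library and did not pass the test. For Cyp26b1 (ENSMUSG00000063415, chromosome 6, 84571414 to 84593908, minus strand) the WT libraries had 31.5, 34.0, 31.3 and 35.3 normalized counts, and the HAR123-KO libraries 29.7, 25.7, 29.1 and 23.4. The genotypes did not overlap, though the lowest WT and the highest HAR123-KO value were close. The log2 fold change of -0.29 ± 0.24 (SE) had a DESeq2 adjusted p of 0.850, and its 95% interval ran from 0.593 to 1.13 times the WT level. Cyp26a1, the CYP26 gene known for its induction by retinoic acid, had 0 counts in all 8 libraries, which allows up to 3 counts over the whole series.

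Among the retinoic acid receptor genes, Rarb separated the genotypes without passing the test over all genes, and Rara did not separate them. For Rarb (ENSMUSG00000017491, chromosome 14, 16430839 to 16819156, minus strand) the WT libraries had 101, 91.6, 89.0 and 105 normalized counts, and the HAR123-KO libraries 113, 131, 110.0 and 134. All 4 HAR123-KO libraries were above all 4 WT libraries. The means were 96.7 ± 7.60 and 122 ± 12.4 (SD, n = 4), a ratio of 1.26, and the 95% interval of the fitted fold ran from 1.06 to 1.501. In DESeq2 the log2 fold change was 0.34 ± 0.13 (SE) with an adjusted p of 0.228 (0.00757 before adjustment). Of the exonic bases of Rarb, 1793 of 5265 (34.1%) also lie in exons of Top2b on the opposite strand, and the strand setting of the counting is not given in the sources used here. For Top2b the fitted log2 difference was -0.03 ± 0.06 (SE, adjusted p = 0.978 in DESeq2).

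Rara (ENSMUSG00000037992, chromosome 11, 98927818 to 98974942, plus strand) encodes the receptor isotype found most widely across tissues. The WT libraries had 48.4, 48.4, 51.7 and 50.3 normalized counts, and the HAR123-KO libraries 54.3, 35.2, 33.5 and 60.6. The WT libraries were close together, while HAR123-KO replicates 1 and 4 lay above all of them and replicates 2 and 3 below. The difference on the log2 scale was -0.13 ± 0.20 (SE, adjusted p = 0.958 in DESeq2), with a 95% interval from 0.697 to 1.20 times the WT level.

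Rarb is itself a textbook target of retinoic acid, and a promoter window of it is shown for the repeat that receptors of this family are known to bind. Promoters of the 9 members (19 windows of 300 bases in RefSeq, from 250 bases before to 50 after a transcription start, build GRCm38.p6) were searched on both strands for the unit AGGTCA, its variant AGTTCA, the variant GGTTCA or the variant GGGTCA followed by any of these in the same direction after a spacer of 1, 2 or 5 bases, forms that RAR and RXR pairs are known to bind. A repeat spaced by 5 bases was found in 32 of 32851 windows of all genes (0.0974%), and among the 9 members only in the window of Rarb. Repeats spaced by 1 or 2 bases were in 0 of the 19 windows, against 0.222% and 0.268% of all windows. Of 67 retinoid pathway genes with a window, members included, Rarb and Cyp26a1 were those with a repeat spaced by 5 bases. Both windows are shown 5′ to 3′ along the gene, with the repeat in capitals. They lie at chr14:16575427-16575726 (minus strand) for Rarb and chr19:37697558-37697857 (plus strand) for Cyp26a1.
Rarb: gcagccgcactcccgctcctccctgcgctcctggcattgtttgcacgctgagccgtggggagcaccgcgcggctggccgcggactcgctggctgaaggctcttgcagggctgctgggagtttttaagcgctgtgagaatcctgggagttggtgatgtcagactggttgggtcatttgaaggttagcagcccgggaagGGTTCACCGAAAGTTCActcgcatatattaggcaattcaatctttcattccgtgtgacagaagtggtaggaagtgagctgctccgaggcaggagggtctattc
Cyp26a1: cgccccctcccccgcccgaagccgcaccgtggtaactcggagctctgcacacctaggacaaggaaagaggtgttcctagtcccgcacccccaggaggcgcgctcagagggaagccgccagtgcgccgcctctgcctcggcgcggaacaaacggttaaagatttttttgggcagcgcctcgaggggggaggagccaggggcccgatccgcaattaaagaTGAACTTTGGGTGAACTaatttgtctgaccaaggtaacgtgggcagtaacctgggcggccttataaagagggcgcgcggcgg
The repeat of Rarb runs from 53 to 37 bases before the transcription start given by RefSeq and reads along the gene. That start is an internal one, downstream of the 5′ end of the Rarb gene at 16819156, and counts per gene do not show which start was used. That of Cyp26a1 runs from 32 to 16 bases before the start and reads on the opposite strand, as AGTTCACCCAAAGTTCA. Of these genes with the same kind of repeat, Rarb had 89.0 to 134 normalized counts per library and Cyp26a1 had 0. A match describes the letters of the window and does not show that a receptor was bound there.

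Among the RXR genes, the lowest p of all members was that of Rxrg, the isotype with the most restricted expression in brain. For Rxrg (ENSMUSG00000015843, chromosome 1, 167598384 to 167639623, plus strand) the WT libraries had 65.3, 72.1, 79.6 and 84.5 normalized counts, and the HAR123-KO libraries 82.9, 103, 103 and 113. HAR123-KO replicates 2, 3 and 4 were above all WT libraries, and replicate 1 lay within the WT range. The means were 75.4 ± 8.45 and 100.3 ± 12.5 (SD, n = 4), a ratio of 1.33, and the 95% interval of the fitted fold ran from 1.09 to 1.61. In DESeq2 the log2 fold change was 0.41 ± 0.14 (SE), the largest in size among the members, with an adjusted p of 0.156 (0.00409 before adjustment). With edgeR the adjusted p was 0.0521, and over the alternatives that kept all libraries it ran from 0.0521 to 1.

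Rxra (ENSMUSG00000015846, chromosome 2, 27676440 to 27762957, plus strand), encodes a partner shared by many nuclear receptors. The WT libraries had 91.2, 97.8, 80.5 and 99.5 normalized counts, and the HAR123-KO libraries 93.2, 121, 99.5 and 101. The groups overlapped, and the highest value was in HAR123-KO replicate 2. The difference on the log2 scale was 0.18 ± 0.13 (SE, adjusted p = 0.820 in DESeq2), with a 95% interval from 0.941 to 1.35 times the WT level. A direct test of the difference in fold change between Rxrg and Rxra, or between Rarb and Rara, was not made.

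**Figure D2:**
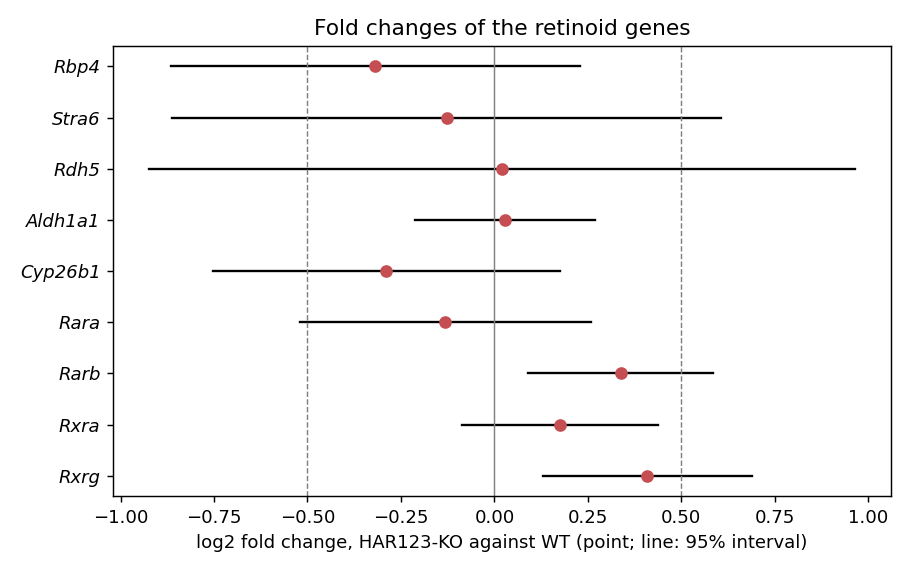
Log2 fold change in HAR123-KO against WT (x axis, points) of the 9 retinoid genes (y axis) with 95% intervals (lines), and dashed lines at the minimum fold change of the threshold. The intervals of Rarb (0.09 to 0.59) and Rxrg (0.13 to 0.69) lay above 0, and those of the other members included 0.

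Within each library the makeup of the receptor families can be read without any scaling between libraries. Rarb made up 45.3% ± 2.93 of the summed RAR counts per kb among WT libraries and 53.9% ± 4.99 among mutants (SD, n = 4). Its share was 42.2% to 49.2% in WT and 49.5% to 61.1% in HAR123-KO, with no overlap but neighbouring values. Rxrg made up 34.8% ± 2.82 of the RXR counts per kb among WT libraries and 40.9% ± 4.203 among mutants (SD, n = 4), and these ranges overlapped. Rxrb made up 47.3% ± 1.995 and 41.4% ± 3.84 (SD, n = 4), with overlap, and it exceeded Rxrg in all 4 WT libraries but not in HAR123-KO replicates 3 and 4. The share of Rxra was 17.9% ± 1.34 and 17.7% ± 0.653 (SD, n = 4). Because Rarb shares exons with Top2b, its share of the RAR counts depends on how reads in those exons were counted.

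**Figure D3:**
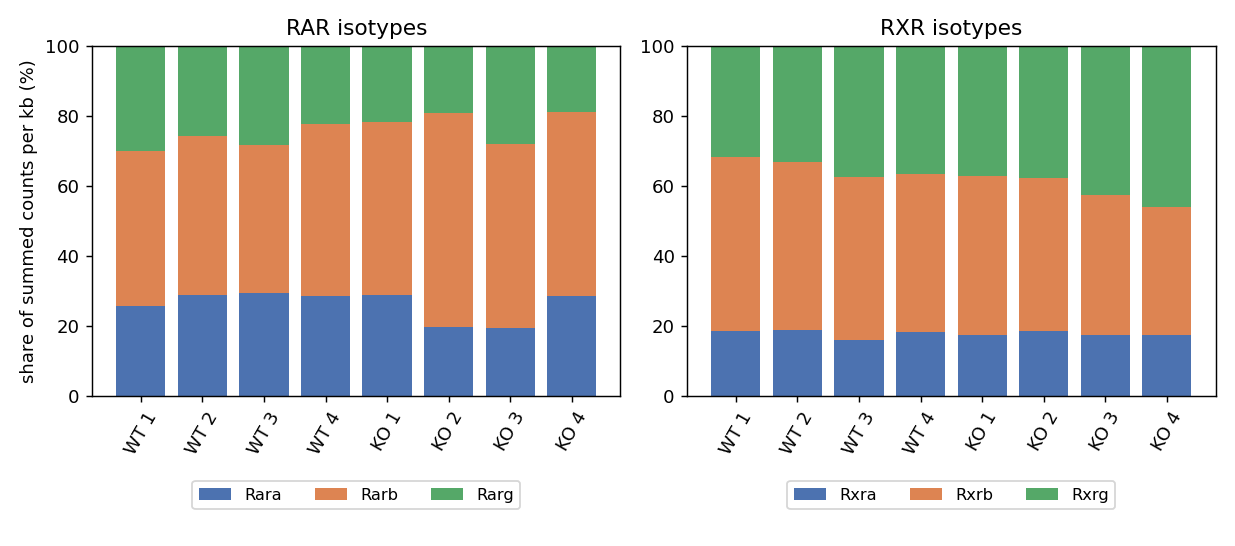
Share of each isotype (y axis, percent of summed normalized counts per kb) among RAR genes (left) and RXR genes (right) in each library (x axis, KO stands for HAR123-KO). The Rarb share was 42.2% to 49.2% in WT and 49.5% to 61.1% in HAR123-KO, while the Rxra share lay between 16.0% and 19.0% in all 8 libraries.

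Markers of striatal projection neurons were higher in the same libraries. Of 14 such markers, 13 had an adjusted p, and 10 of these rose past an adjusted p of 0.05 in DESeq2 while 0 fell, against 0.972% and 0.713% of all genes. Their median log2 fold change was 0.38, with a range from -0.14 (Pdyn, an opioid peptide gene, adjusted p = 0.917) to 0.80 (Penk, the enkephalin gene), against a median of 0.00 over all genes. The summed level of the list was 6646 to 6862 normalized counts in WT and 8651 to 8862 in HAR123-KO, and no marker was at 0 in all libraries. Rxrg had 9.64 to 12.4 counts per 1000 counts of these markers in WT and 9.36 to 13.0 in HAR123-KO, and for Rarb the values were 13.4 to 15.3 and 12.6 to 15.5. These ratios overlapped between genotypes, as the Rxrg counts themselves did. The Rarb counts themselves did not overlap (89.0 to 105 normalized counts in WT and 110 to 134 in HAR123-KO). Several of these markers, Drd2, Penk, Adora2a and Gpr6 among them, were named in earlier results of these data when the list was made, so the list is not independent evidence of its direction. The part of striatal RNA in the levels of Rarb and Rxrg was not tested.

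**Figure D4:**
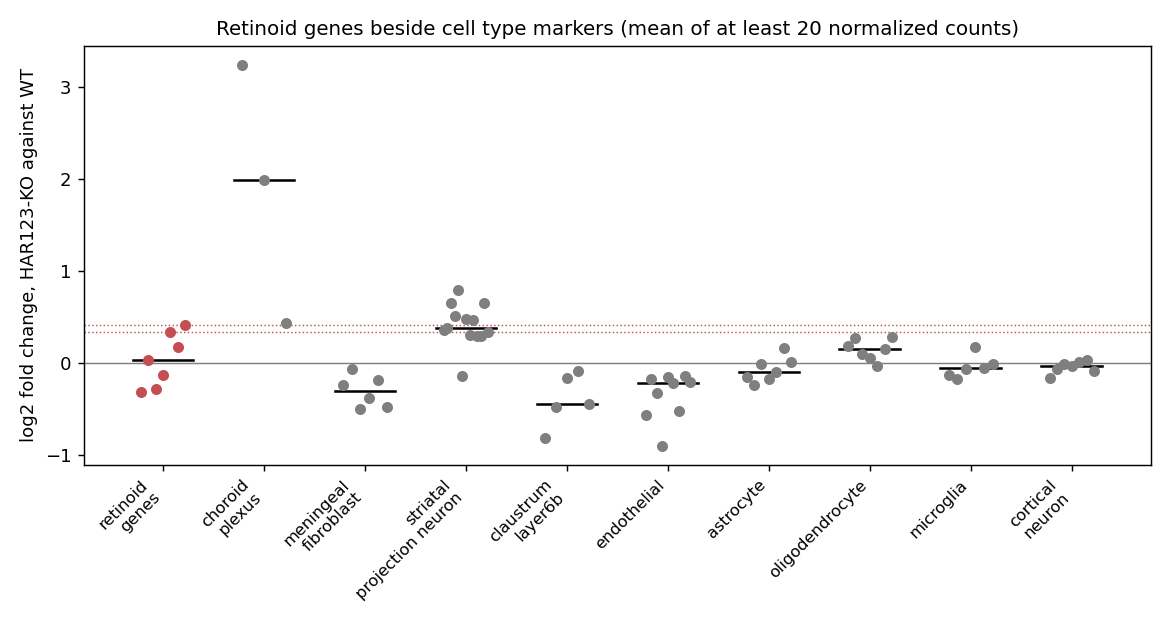
Log2 fold change in HAR123-KO against WT (y axis) of the retinoid genes (red) and of markers of 9 cell types (grey), 1 point per gene whose mean reached 20 normalized counts, with the median of the points shown (black bar). Dotted lines mark Rarb (0.34) and Rxrg (0.41), which lie within the range of the striatal markers.

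Other cell type lists are given for comparison, beside a share over all genes of 0.972% higher and 0.713% lower at an adjusted p under 0.05. Meningeal fibroblast markers, a layer that makes retinoic acid, had a median log2 fold change of -0.31 over 8 genes with an adjusted p, of which 1, Ptgds, fell past 0.05 and 0 rose. Their summed level was 1439 to 1490 normalized counts in WT and 1222 to 1300.3 in HAR123-KO. Ptgds supplied most of this sum, at 1175 to 1211 in WT and 1019 to 1072 in HAR123-KO. Claustrum and layer 6b markers, of which 7 of 8 had a row, had a median of -0.46 over 6 genes, with 2, Nr4a2 and Gnb4, lower and 0 higher past an adjusted p of 0.05, and a summed level of 711 to 797 in WT and 521 to 567 in HAR123-KO. Endothelial markers had a median of -0.22 over 9 genes, with 1, Vwf, lower past 0.05. Oligodendrocyte markers had a median of 0.15 over 7 genes with 4 higher and astrocyte markers -0.10 over 7 with 3 lower. Of the 6 cortical neuron markers named above, Slc17a7, a vesicular glutamate transporter gene, and Camk2a, a kinase gene of excitatory neurons, fell past 0.05 (DESeq2 adjusted p = 8.21e-06 and 0.0055), with log2 fold changes of -0.16 and -0.08, and 0 rose. The call on Camk2a was lost with edgeR (adjusted p = 0.0819), with library totals as size factors (0.810) and without WT replicate 3 (0.0651). Of 6 microglia markers 0 were past 0.05 in DESeq2. The part of these cell types in the level of Cyp26b1 was not tested.

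The wider pathway was described through 77 further genes in 3 lists. Of these, 10 had 0 counts in all libraries and 39 had an adjusted p. In DESeq2, 4 rose and 3 fell past an adjusted p of 0.05, against 1.69% of all genes in both directions together, and the median log2 fold change of the 39 was -0.07. Genes on more than 1 list were counted once. Ttr, Nr4a2 and Drd2 were known to differ when the lists were made.

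The other genes that handle retinoids held 1 change. Of 43 listed, 7 had 0 counts throughout, among them Cyp26a1, the retinal genes Rbp3 and Rgr, and Rbp7. Ttr was the only one of the 14 with an adjusted p that rose past 0.05, and 0 fell, against 0.972% higher and 0.713% lower over all genes. The summed level of the list without Ttr was 898 to 961 normalized counts in WT and 874 to 935 in HAR123-KO, which overlap. The remaining receptor genes Rarg and Rxrb differed by -0.20 ± 0.20 and -0.01 ± 0.10 on the log2 scale (SE, adjusted p = 0.908 and 0.998 in DESeq2).

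Partners and coregulators of the receptors held opposite changes in the Nr4a family, orphan receptors that can pair with RXR. Nr4a2 fell from 213 ± 22.5 to 121 ± 8.53 normalized counts (SD, n = 4, log2 fold change -0.81 ± 0.11, SE, DESeq2 adjusted p = 1.52e-11). Nr4a1, an early response gene, rose from 166 ± 14.1 to 213 ± 27.0 (SD, n = 4, log2 fold change 0.36 ± 0.10, SE, adjusted p = 0.0280), with the highest value of 252 in HAR123-KO replicate 4. The call on Nr4a1 held without WT replicate 3 or HAR123-KO replicate 3 and was lost without any other library (DESeq2 adjusted p from 0.0249 to 0.337). It was also lost with all libraries when genes needed 10 counts in 4 libraries (0.0607) and without the independent filter (0.0616). Thra, a thyroid hormone receptor gene and RXR partner, was at -0.10 ± 0.04 on the log2 scale (SE, adjusted p = 0.212). Of the 16 genes of this list with an adjusted p, 1 rose and 2 fell past 0.05, against 0.972% higher and 0.713% lower over all genes.

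Genes known to respond to retinoic acid did not move in 1 direction. Of 21 listed, 13 had an adjusted p, and 2 rose and 1 fell past 0.05 in DESeq2, against 0.972% higher and 0.713% lower over all genes. Drd2, the dopamine receptor gene of indirect pathway striatal neurons, rose from 118 ± 18.2 to 185 ± 13.6 normalized counts (SD, n = 4, log2 fold change 0.65 ± 0.11, SE, adjusted p = 2.37e-06). Meis2, a homeobox gene of striatal neurons, rose from 504 ± 7.71 to 612 ± 18.3 (SD, n = 4, log2 fold change 0.28 ± 0.06, SE, adjusted p = 0.0001). Drd2 is also on the list of striatal markers above, and the part of striatal RNA in the levels of Drd2 and Meis2 was not tested. Nrgn, a postsynaptic calmodulin-binding protein gene of forebrain neurons, fell from 3753 ± 112 to 3402 ± 143 (SD, n = 4, log2 fold change -0.14 ± 0.03, SE, adjusted p = 0.000714), a call lost with library totals as size factors (0.105).

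Tgm2, the transglutaminase gene and a classical retinoic acid target, was at 27.0, 29.9, 36.4 and 44.9 normalized counts in the WT libraries, and at 25.6, 19.02, 17.6 and 19.1 in the HAR123-KO libraries. The genotypes did not overlap, although WT replicate 1 and HAR123-KO replicate 1 were close. Its log2 fold change of -0.77 ± 0.26 (SE) had a DESeq2 adjusted p of 0.124 and an edgeR adjusted p of 0.0403, so that its call depended on the test, with a range from 0.0403 to 1 over the alternatives that kept all libraries. Rai14, a gene first found as induced by retinoic acid, was at -0.39 ± 0.17 on the log2 scale (SE, adjusted p = 0.407), with no overlap between genotypes.

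The genes whose levels followed Rxrg most closely were sought as a description, since Rxrg had the smallest p among the members. Over the 8 libraries, and among 12383 genes whose mean reached 20 normalized counts, the highest Pearson correlations of log2(normalized count + 1) were with Aplf (0.955), Slc6a8 (0.953), Plcb1 (0.946), Kcna4 (0.941) and Traf4 (0.939). The points share the scaling of their libraries and fall into 2 genotypes, and the 5 genes are the top of 12383, so the values are given without a test. None of the 5 had a DESeq2 adjusted p under 0.05 (from 0.244 to 0.707).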

How the data were processed

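The data were 8 libraries of frontal cortex. Per the labels and the study's methods, the authors prepared them with a directional kit, aligned reads with STAR 2.5.2b to GRCm38 and deposited raw read counts per gene from featureCounts over exons, with 1 column per library. The strand setting and the handling of multimapping reads are not given in the sources used here. All 55536 identifiers had the same start and end in GENCODE M21, which gave the symbols, and 0 columns were left unused. The total counts of 13528251 to 17051001 per library, less ribosomal sequence, set the precision, which the SE and 95% intervals show.

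Genotypes were compared with the Wald test of DESeq2 1.42.0 (R 4.3.3, median-of-ratios size factors, genotype only, a local dispersion trend that the tool put in place of its parametric one in every fit, Benjamini-Hochberg adjustment over 12758 genes kept by its independent filter, a mean of at least 17.6), fitted on all genes. DESeq2 and the limits are the study's, while its test, design and filter are not given in the sources used here. Alternatives were edgeR 4.0.16, limma-voom (limma 3.58.1), other size factors and filters, stricter limits, a block and leaving out each library. The scripts were tested on simulated data. Between libraries of 1 genotype, chi-square per degree of freedom over protein-coding genes was 1.22 to 1.35, so none was a copy of another. The members and lists were chosen with earlier results of these data known. Named genes are the members, genes they overlap, list genes with an unadjusted p under 0.05, Ttr, markers of the lists, and the 5 genes most correlated with the member of smallest p. Rarg, Rxrb, Aldh1a2, Aldh1a7, Cyp26a1, Rbp3, Rgr and Rbp7 were named after their values were seen, and 1 gene that the rule names is not reported here. Promoters are from RefSeq (GRCm38.p6).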

Additional observations from a re-analysis of the deposited data

Results flagged for a closer look

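Among the members, 1 of 18 groups of 4 libraries held a value set apart from the rest by Dixon's criterion, where chance gives 0.9. Rbp4 in HAR123-KO replicate 1 was at 29.7 normalized counts, and the other mutant libraries lay at 19.1 to 19.97. Without that library its log2 fold change was -0.49, while without WT replicate 2, the highest library of all, it was -0.06, and it was called in neither case.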

How the results depend on the processing

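The count of retinoid genes past the threshold was 0 under every alternative run (edgeR and limma-voom included) and in each fit without 1 library, and so was the count with an adjusted p under 0.05. In some of these fits few members had an adjusted p and could be called, namely 3 without HAR123-KO replicate 4 (not Rxrg), 4 without WT replicate 3 and 5 without WT replicate 4. Over all genes, 38 were past the threshold, against 73 with edgeR, 3 with stricter limits (adjusted p under 0.01, log2 over 1), and 9 with the replicate block. Without 1 library the count ran from 11 (without HAR123-KO replicate 4) to 44, and it was 18 without WT replicate 3. The number of pathway genes with an adjusted p under 0.05 was 7, against 5 to 6 without 1 library and 2 with the replicate block (Ttr and Nr4a2). Correlations of the deviations from the genotype means were -0.03 to 0.03 between libraries of the same number. The shared number gave the highest one for 1 of 4 libraries. Such correlations cannot exclude a pairing by litter or processing, because a pairing need not show in them. Whether the loss under the block reflects a weaker effect was not tested. With the block, Rarb had an unadjusted p of 0.0844 and Rxrg of 0.0529. The sign of 4 uncalled members turned in 8 of 141 alternative fits, all of them without 1 library, and the other 133 fits kept direction and side of the threshold. Over those fits, the log2 fold change of Stra6 ran from -0.264 to 0.033, of Rdh5 from -0.152 to 0.208, of Aldh1a1 from -0.037 to 0.088 and of Rara from -0.29 to 0.00. Rarb stayed between 0.29 and 0.39 and Rxrg between 0.35 and 0.49. The cause of these differences was not tested. Library totals as size factors moved the median of all genes by 0.04 on the log2 scale. Depth limits Stra6 and Rdh5, whose means were 12.6 and 7.70 normalized counts.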
